A study of Mus musculus with 160 samples.

Results

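Hox genes are homeodomain transcription factors that lie side by side in 4 clusters, HoxA to HoxD, and the 38 of them that could be matched in a table of 39179 genes are described here in 160 RNA-seq libraries of mouse brain and liver. They were taken by a rule on the symbol that uses no measured value, though earlier results of these data were known. By that rule 39 annotated mouse genes have a name of the form Hoxa to Hoxd plus a number, and Hoxd4 was not matched and is not analysed here. The HoxA cluster (11 genes) lies on chromosome 6, HoxB (10) on chromosome 11, HoxC (9) on chromosome 15 and HoxD (8) on chromosome 2. In the developing embryo each segment of the body axis carries its own combination of active Hox genes, and the low numbered genes of each cluster reach farthest forward, into the hindbrain. The forebrain forms without Hox activity, and outside the cells that use them the clusters are held silent by Polycomb group proteins. Hox proteins bind DNA together with partner homeodomain proteins of the Pbx, Meis and Pknox (Prep) families.

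The R6/2 mice carry the transgene Tg(HDexon1)62Gpb, which places the first exon of human HTT, with a long CAG tract and its own human promoter, into a genome whose mouse Htt genes are intact; the line is used as a model of Huntington's disease. The wild-type (WT) mice have no transgene, and both are labelled as C57BL/6J in background. At 12 weeks of age both genotypes received, once by mouth, either CHDI-00340246 at 10 mg/kg, which blocks the enzyme kynurenine monooxygenase (KMO), or only its vehicle (10% HP-β-CD in citrate buffer), and tissue was taken 6 h later. There are thus 4 groups in each of striatum, cortex, cerebellum and liver (R6/2 with CHDI-00340246, R6/2 with vehicle, WT with CHDI-00340246, WT with vehicle), each of 10 libraries, 5 from females and 5 from males. The labels do not say which tissues came from the same mouse; in all 40 sets of specimen numbers spaced 40 apart, 1 in each tissue, sex, genotype and treatment were the same. The p-values measure the spread between the libraries of a tissue.

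Library totals ran from 28471184 to 46301317 counts over the 160 libraries. Tissue labels were checked on defining genes: in the vehicle groups Tbr1, a transcription factor of deep-layer cortical neurons, averaged 100.95 and 138.14 CPM (counts scaled to library size) in R6/2 and WT cortex against at most 2.32 CPM in the other tissues, Gabra6, a granule cell receptor subunit, 788 and 851 CPM in R6/2 and WT cerebellum, Drd1, the dopamine D1 receptor, 104.03 and 288 CPM in R6/2 and WT striatum, and Alb, the plasma protein albumin, 93673 and 68706 CPM in R6/2 and WT liver. In 2 libraries the Hox counts stood far above those of their group. The second male of the WT CHDI-00340246 striatum held 188.67 Hox counts against 6 to 22 in the other 9, and the first female of the R6/2 CHDI-00340246 cerebellum held 367.08 against 22 to 110.32. Group sums that hold these libraries, and counts of called genes, are given with and without them.

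To show the sequence around the starts of Hox genes, the 5 members that were called higher in the R6/2 cortex under both treatments and have an entry in the promoter table used here are printed from RefSeq (GRCm38.p6), each from 250 bases before to 50 after the start that RefSeq gives, 5′ to 3′ on the gene's strand, with CG dinucleotides in capitals. They are Hoxa2 (minus strand, chr6:52164782-52165081), Hoxa7 (minus strand, chr6:52218524-52218823), Hoxb8 (plus strand, chr11:96281655-96281954), Hoxc4 (plus strand, chr15:103034145-103034444) and Hoxd8 (plus strand, chr2:74704365-74704664). For Hoxa2, Hoxb8 and Hoxd8 this start is also that of the GENCODE M21 gene, while for Hoxa7 it lies 3281 bases and for Hoxc4 15461 bases inside the longer GENCODE gene, so that those windows do not show the outermost start.
Hoxa2: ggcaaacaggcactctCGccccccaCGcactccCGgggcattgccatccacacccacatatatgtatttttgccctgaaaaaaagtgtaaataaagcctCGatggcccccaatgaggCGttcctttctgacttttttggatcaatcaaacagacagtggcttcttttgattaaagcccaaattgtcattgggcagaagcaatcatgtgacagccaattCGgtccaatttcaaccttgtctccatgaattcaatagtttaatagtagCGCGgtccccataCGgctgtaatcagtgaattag
Hoxa7: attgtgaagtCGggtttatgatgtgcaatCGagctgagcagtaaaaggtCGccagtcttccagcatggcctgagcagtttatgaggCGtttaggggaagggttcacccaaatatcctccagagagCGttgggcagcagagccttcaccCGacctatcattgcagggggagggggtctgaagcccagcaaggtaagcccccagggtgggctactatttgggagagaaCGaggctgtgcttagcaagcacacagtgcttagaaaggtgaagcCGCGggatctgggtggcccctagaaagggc
Hoxb8: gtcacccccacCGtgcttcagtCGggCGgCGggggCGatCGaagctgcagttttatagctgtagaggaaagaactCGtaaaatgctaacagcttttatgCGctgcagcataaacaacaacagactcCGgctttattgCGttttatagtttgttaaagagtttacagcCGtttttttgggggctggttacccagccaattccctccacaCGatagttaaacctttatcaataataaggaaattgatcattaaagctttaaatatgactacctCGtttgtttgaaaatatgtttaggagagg
Hoxc4: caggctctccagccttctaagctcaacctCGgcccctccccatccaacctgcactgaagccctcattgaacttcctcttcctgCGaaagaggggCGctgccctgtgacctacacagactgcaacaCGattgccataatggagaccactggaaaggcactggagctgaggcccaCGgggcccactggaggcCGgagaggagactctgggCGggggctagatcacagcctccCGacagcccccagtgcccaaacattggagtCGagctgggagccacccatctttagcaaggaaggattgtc
Hoxd8: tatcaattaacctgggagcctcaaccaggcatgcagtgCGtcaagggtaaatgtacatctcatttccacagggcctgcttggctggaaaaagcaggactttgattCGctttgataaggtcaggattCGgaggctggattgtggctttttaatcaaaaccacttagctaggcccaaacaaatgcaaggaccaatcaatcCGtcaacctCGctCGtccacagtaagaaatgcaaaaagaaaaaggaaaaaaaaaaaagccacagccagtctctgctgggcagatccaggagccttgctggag
Hoxa2, Hoxa7 and Hoxc4 have 9 CG dinucleotides each, Hoxb8 has 13 and Hoxd8 has 6. The median over the 24 promoters of the 22 Hox genes in the table is 14.5 (lowest 4, highest 45), against 7 over all 32851 promoters. The sites at which Hox proteins bind together with Pbx were searched on both strands as TGATTNAT, which is in 1 of the 5 windows, that of Hoxa2, in 8.33% of the Hox promoters (2, at Hoxa2 and Hoxd11) and in 3.22% of all promoters.

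Hox counts were low in every brain group. The 38 genes together took 13618 counts over the 160 libraries, 5 genes had 0 counts throughout (Hoxa11, Hoxb1, Hoxc11, Hoxc12 and Hoxd12) and 10 had under 10 counts in all. The summed Hox level in the R6/2 cortex was 2.92 ± 1.66 CPM with CHDI-00340246 and 2.15 ± 1.25 with vehicle, against 0.179 ± 0.0649 and 0.246 ± 0.0971 in the WT cortex (SD, n = 10 each). The lowest R6/2 cortex library, at 0.811 CPM, lay above the highest WT one, at 0.381 CPM. In the striatum the R6/2 libraries averaged 1.37 ± 0.283 CPM with CHDI-00340246 and 1.11 ± 0.190 with vehicle, against 0.800 ± 1.40 and 0.371 ± 0.0869 in WT. There the R6/2 vehicle libraries (0.887 to 1.47 CPM) did not overlap the WT vehicle libraries (0.279 to 0.524), while the WT CHDI-00340246 group spanned 0.174 to 4.76 CPM, the top value being its second male, without which it held 0.360 ± 0.132 CPM (n = 9). The cerebellum held 2.12 ± 2.43 and 1.30 ± 0.731 CPM in R6/2, against 1.08 ± 1.24 and 1.01 ± 0.818 in WT, in the same order of treatments, and the genotypes overlapped. Without its first female the R6/2 CHDI-00340246 cerebellum held 1.40 ± 0.819 CPM (n = 9). The liver had the highest sums, 6.21 ± 1.11 and 6.08 ± 0.920 CPM in R6/2 against 4.34 ± 1.40 and 4.37 ± 0.981 in WT, and these ranges overlapped as well. These sums are given as a description, since in bulk tissue more cells with Hox RNA and more Hox RNA per cell cannot be told apart. The sums use library totals alone, while group levels of single genes are further scaled between libraries (TMM, factors 0.765 to 1.14 in liver). Sums and gene levels are thus not on one scale. How far this scaling bears on the liver difference was not tested.

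**Figure D1:**
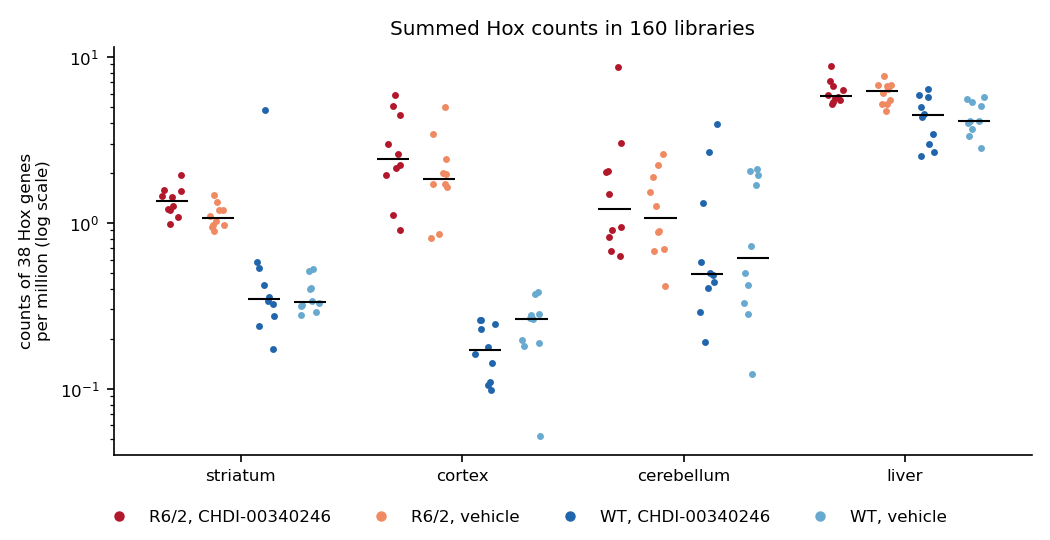
Summed level of the 38 Hox genes in CPM (log scale) in every library, by tissue, genotype and treatment; points are libraries and the black line is the group median. All R6/2 cortex libraries (lowest 0.811 CPM) lie above all WT cortex libraries (highest 0.381), and single libraries reach 4.76 in the WT CHDI-00340246 striatum and 8.67 in the R6/2 CHDI-00340246 cerebellum.

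The makeup of the sums differed between tissues. Of the Hox counts in the R6/2 cortex, 75.87% (CHDI-00340246) and 73.16% (vehicle) came from paralogs 5 to 8, the trunk genes of the middle of the clusters, against 30.77% and 43.18% in the WT cortex, whose groups held only 65 and 88 Hox counts. HoxB genes took 54.73% and 50.86% of the counts in the R6/2 cortex and 29.23% and 20.45% in the WT cortex, in the same order of treatments. In the striatum it was HoxA that took the largest share in R6/2, 47.44% with CHDI-00340246 and 50.74% with vehicle, against 32.48% (34.19% without the second male) and 29.13% in WT. Paralogs 1 to 4, the hindbrain genes, made up 71.39% (69.33% without the first female) and 74.47% in the R6/2 cerebellum and 84.27% and 81.11% in the WT cerebellum. In FPKM, which corrects for gene length, among the highest members were Hoxb5, Hoxc6 and Hoxa7 in the R6/2 vehicle cortex, with Hoxb5 at 0.229 ± 0.183 FPKM (SD, n = 10), Hoxa7 and Hoxd1 in the R6/2 vehicle striatum, Hoxa2 and Hoxb2 in the R6/2 vehicle cerebellum, and Hoxb4, Hoxb2 and Hoxb5 in the liver of both genotypes under vehicle. The median FPKM of all genes above 0 was 1.27 in the R6/2 vehicle cortex and 1.24 in the R6/2 vehicle cerebellum. In the liver under vehicle Hoxb4 had 0.565 ± 0.105 FPKM in R6/2 and 0.441 ± 0.122 FPKM in WT (SD, n = 10 each), where that median was 0.651 in R6/2 and 0.593 in WT.

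**Figure D2:**
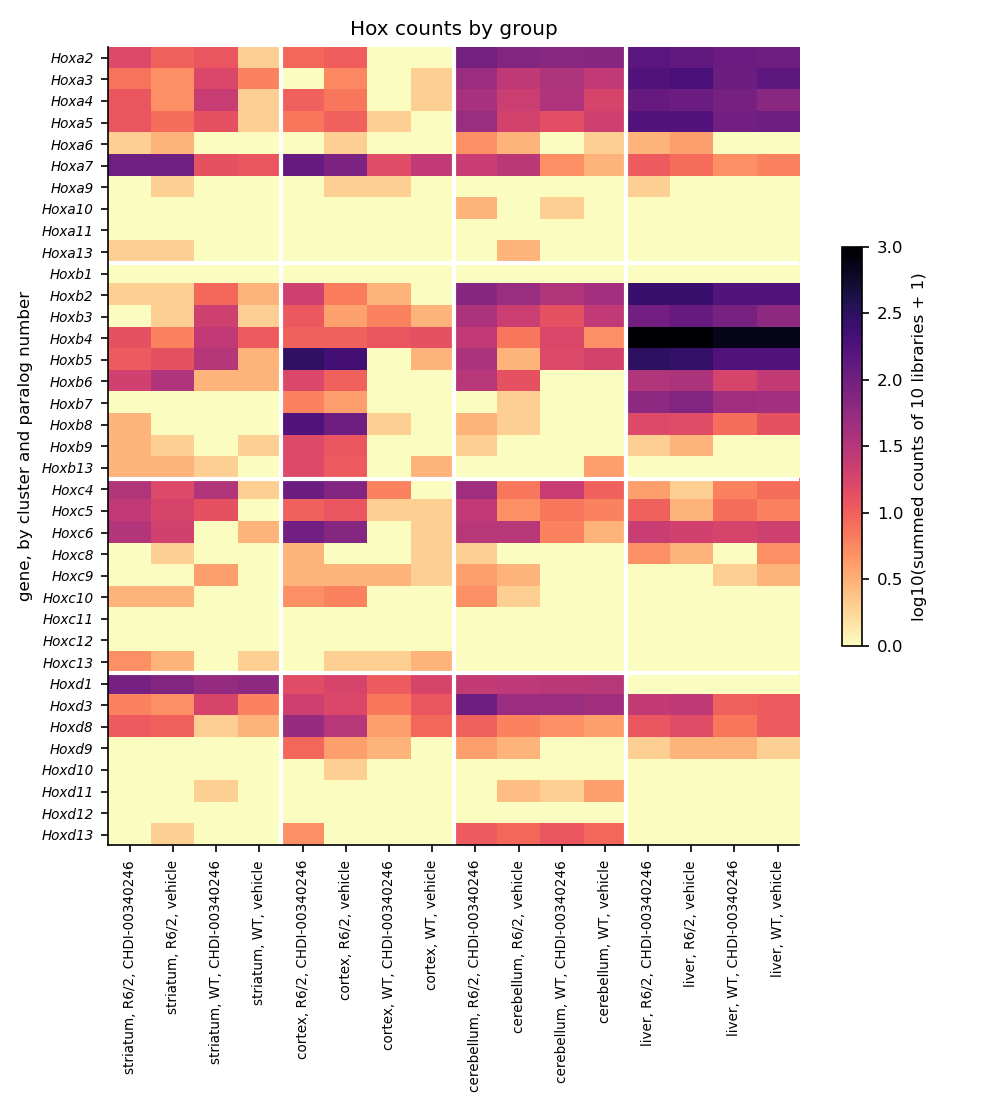
Summed counts over the 10 libraries of each group for Hox genes (rows, by cluster and number) in the 16 groups (columns), as log10 of the sum plus 1. Counts of Hoxb5, Hoxb8, Hoxc4 and Hoxc6 are high in the R6/2 cortex and at or near 0 in the WT cortex, Hoxa7 is higher in the R6/2 than in the WT striatum, and most liver counts lie in HoxB.

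Genotype was compared gene by gene with edgeR's quasi-likelihood test, with p-values adjusted over all genes tested in the tissue and a call at an adjusted p under 0.05. A gene needed 10 counts over a tissue's 40 libraries, which left 17 Hox genes in the striatum, 20 in the cortex, 18 in the cerebellum and 19 in the liver. A Hox gene that is at or near 0 in WT can reach 10 counts only through the R6/2 libraries and had to differ, so the counts of called genes below are a description. Where WT has 0 counts the fold is given as at least the ratio to 3 counts over the WT group, and where WT has 1 to 3 counts as the ratio of the summed CPM with its exact 95% counting interval, which covers counting error only.

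In the vehicle cortex 10 of 20 Hox genes tested were higher in R6/2 and none lower, where 21.7% of all 23234 genes tested were higher and 42.5% were called in either direction. The 4 calls with the smallest p lay in HoxB and HoxC. Hoxb5, which in development is active in posterior hindbrain, spinal cord and trunk, had 3 to 53 counts (median 17.5) in R6/2 libraries, against 0 or 1 in WT libraries (2 counts in all, in 2 libraries). Every R6/2 library thus lay above every WT library, the interval of the ratio of sums (215 counts against 2) was 30.5 to 928, and the edgeR adjusted p was 2.3e-07. Hoxb8, a gene of spinal cord and blood precursors, had 2 to 33 counts (median 8.5) in R6/2 and 0 in each of the 10 WT libraries. That is at least 36.4-fold higher in R6/2 (0.309 ± 0.324 CPM, adjusted p = 6.6e-06).

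The HoxC genes gave the 2 smallest p-values. Hoxc4 had 2 to 19 counts (median 6.5) in R6/2 cortex libraries and 0 in all WT libraries, which is at least 25.97-fold higher (75 counts, adjusted p = 2.7e-08). Hoxc6 had 1 to 12 counts (median 7) in R6/2 and a single count in 1 of the 10 WT libraries, a ratio of 72.7 (12.6 to 2913; adjusted p = 4.7e-08). Hoxb5, Hoxb8 and Hoxc4 had every R6/2 library above every WT library, as had 0.779% of all genes tested. Hoxa7, unlike these, was present in WT: 4 to 13 counts (median 8) in R6/2, against 0 to 6 (median 2) in WT, so that the groups met, with a log2 fold change of 1.60 ± 0.37 (SE; adjusted p = 0.0004). Hoxd8 had 29 counts in R6/2 and 8 in WT (1.67 ± 0.60, adjusted p = 0.022). Other calls rest on few counts, 9 to 11 in R6/2 and 0 or 1 in WT, among them Hoxc5 (adjusted p = 0.015), Hoxa2 (0.016) and Hoxa5 (0.02). Without the replicates numbered 4 only 6 Hox genes were called.

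**Figure D3:**
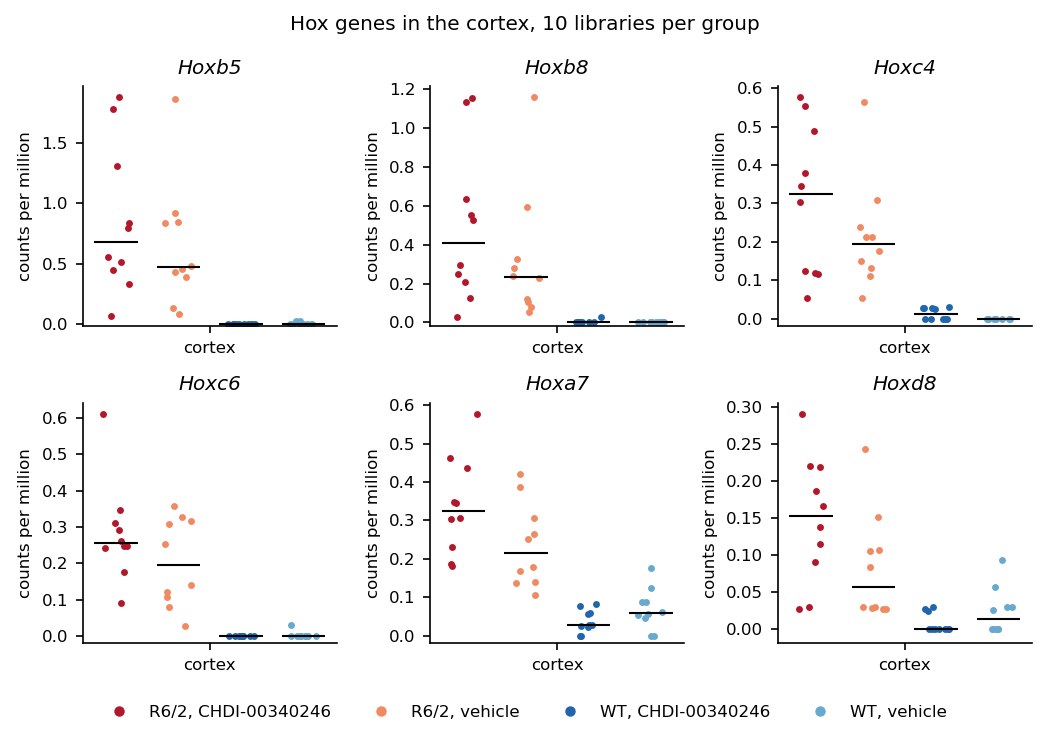
Level (CPM) of Hoxb5, Hoxb8, Hoxc4, Hoxc6, Hoxa7 and Hoxd8 in each cortex library, R6/2 left of WT in each treatment; points are libraries. The 4 HoxB and HoxC genes are near 0 in all WT libraries, and Hoxb5 in R6/2 averages 0.826 CPM with CHDI-00340246 and 0.624 CPM with vehicle. These averages are TMM-scaled, while the points use library totals only.

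Under CHDI-00340246, in other libraries of both genotypes, 13 of the 20 Hox genes were higher in the R6/2 cortex and none lower (22.4% of all genes were higher, 44.4% called). Hoxb5 had 2 to 65 counts (median 25) in R6/2 and none in any WT library, at least 104.1-fold higher (299 counts, adjusted p = 1.6e-08). Hoxc6 had 3 to 22 counts (median 9) in R6/2 and none in WT, at least 34.5-fold higher (adjusted p = 1.6e-09). Hoxa7 had 6 to 20 counts (median 11) in R6/2 against 0 to 3 (median 1) in WT, a log2 fold change of 2.97 ± 0.39 (adjusted p = 3.1e-08). Here Hoxa7, Hoxb5, Hoxc4 and Hoxc6 had every R6/2 library above every WT library, as had 1.38% of all genes tested. Hoxc4 had 2 to 20 counts (median 10.5) against 0 or 1, a log2 fold change of 4.04 ± 0.52 (adjusted p = 9.7e-08).

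Hoxb8 had 1 to 40 counts (median 15) in R6/2 CHDI-00340246 cortex libraries and a single count in the WT group, a ratio of 182 (32.2 to 7220; adjusted p = 5.4e-07). Hoxd8 had 52 counts in R6/2 and 3 in WT, a ratio of 18.1 (5.86 to 90.6; adjusted p = 3.9e-06). Hoxb13, the last gene of its cluster and otherwise a gene of the tail end of the body and the prostate, had 15 counts in 6 of the 10 R6/2 libraries and none in WT, at least 5.22-fold higher (adjusted p = 0.0017), and Hoxb2 had 20 counts against 2, a ratio of 10.4 (2.54 to 92.2; adjusted p = 0.0057). The remaining 5, Hoxb6, Hoxa4, Hoxc5, Hoxa2 and Hoxb9, had 8 to 16 counts in R6/2 and 0 or 1 in WT (adjusted p 0.0086 to 0.044), and 10 of the 15 counts of Hoxb9 came from 1 library. Without the replicates numbered 2 only 8 were called. Of the 13 genes called with CHDI-00340246 8 (61.5%) were also called with vehicle, where they are 8 of 10: Hoxa2, Hoxa7, Hoxb5, Hoxb8, Hoxc4, Hoxc5, Hoxc6 and Hoxd8.

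Counts of hindbrain and spinal neuron genes, a list of 16 that would mark tissue from farther back in the nervous system, were low in the cortex and overlapped between the genotypes: their sum was 4.90 to 16.4 CPM (median 10.6) in R6/2 vehicle libraries against 3.58 to 18.4 (median 5.67) in WT vehicle libraries, and 4.24 to 7.41 (median 5.26) in R6/2 CHDI-00340246 libraries against 3.33 to 7.49 (median 4.41) in WT CHDI-00340246 libraries. None of the 13 tested passed with vehicle and 1 rose with CHDI-00340246. Over all genes tested in the cortex 21.7% were higher and 20.9% lower with vehicle, and 22.4% and 22% with CHDI-00340246. Choroid plexus genes summed to 14.9 to 251 CPM (median 26.7) in R6/2 vehicle libraries against 15.3 to 41.4 (median 25.5) in WT vehicle libraries. With CHDI-00340246 they summed to 10.7 to 455 CPM (median 30.1) in R6/2 against 11.9 to 1818 (median 34.4) in WT. Of these 10 genes none passed with vehicle and 2 fell with CHDI-00340246. Blood cell genes summed to 46.6 to 144.9 CPM (median 85.6) in R6/2 vehicle cortex against 45.2 to 185 (median 121.8) in WT vehicle cortex, and 1 of 11 tested fell with vehicle, while 1 rose and 6 fell with CHDI-00340246. Vascular and meningeal genes summed to 270 to 435 (median 352) CPM in R6/2 vehicle cortex, against 279 to 362 (median 324) in WT, and 3 of 14 rose with vehicle and 2 with CHDI-00340246. The part of any of these cells in the Hox differences was not tested.

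In the vehicle striatum 6 of 17 Hox genes were higher in R6/2 and none lower (23.2% of all 23253 genes tested were higher, 43.4% called). Hoxa7 was the clearest: 4 to 19 counts (median 10) in R6/2 libraries, against 0 to 3 (median 1) in WT libraries, a log2 fold change of 2.89 ± 0.44 (adjusted p = 6.8e-07). It was the only called Hox gene whose R6/2 libraries all lay above the WT ones, as for 9.24% of all genes tested. Hoxb6 had 34 counts against 2, a ratio of 16.1 (lower bound 4.12; adjusted p = 0.00014), and Hoxc6 had 19 against 2, a ratio of 8.98 (2.17 to 79.5; adjusted p = 0.0066). Hoxc5 had 17 counts in R6/2 and none in WT, at least 5.36-fold higher (adjusted p = 0.0042). Hoxa2, with 9 counts against 1 (adjusted p = 0.047), lost its call in 12 of 15 alternative analyses.

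Under CHDI-00340246, 5 of the 17 genes were higher in the R6/2 striatum and 1 lower (23% of all genes were higher, 45% called). Hoxa7 had 5 to 22 counts (median 10) in R6/2 against 0 to 3 (median 1) in WT, again with every R6/2 library above every WT library (as 6.33% of all genes), and a log2 fold change of 2.89 ± 0.43 (adjusted p = 4.1e-07). Hoxc6 had 32 counts in R6/2 and none in WT, at least 11.2-fold higher (adjusted p = 3.9e-05), and Hoxb6 had 19 against 2, a ratio of 10.0 (2.42 to 88.6; adjusted p = 0.02). Hoxd1 had 92 counts in R6/2 and 54 in WT (0.72 ± 0.30, adjusted p = 0.048), and its adjusted p was 0.074 without the 2 libraries of high Hox sum. Hoxb3 was lower in R6/2, with 0 counts against 19.6, of which 17.6 were in the second WT male (adjusted p = 0.045). That call was lost in 8 of 13 alternative analyses (adjusted p up to 0.64), and without that male the gene had 4 counts in the other striatum libraries, too few to be tested. Without those 2 libraries 7 Hox genes were called with CHDI-00340246 and 8 with vehicle, and without the replicates numbered 5 only 3 with CHDI-00340246. Hoxa7, Hoxb6 and Hoxc6 were among the genes called under both treatments, which were 4 of the 5 higher with CHDI-00340246 and 4 of the 6 higher with vehicle (66.7%).

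The sum of the hindbrain and spinal neuron list was lower in the R6/2 striatum. It was 38.8 to 54.1 CPM (median 47.3) in R6/2 vehicle libraries, against 71.1 to 83.9 (median 78.2) in WT vehicle libraries. Of this Slc5a7, the choline transporter that the striatum's own cholinergic neurons carry, gave 20.2 CPM in R6/2 and 61.1 CPM in WT. Slc5a7 thus fell by more than the median sum did. In the second male of the WT CHDI-00340246 striatum Slc5a7 gave 53.1 CPM and Isl1, the next largest member, 16.4 CPM. No difference in hindbrain or spinal tissue is read from this sum. With vehicle 1 of 12 tested genes of that list rose and 3 fell, where 23.2% of all genes tested in the striatum were higher and 20.2% lower. The 10 choroid plexus genes summed to 34.04 to 104.5 CPM in R6/2 against 40.1 to 68.8 in WT, and 1 fell. Of 14 vascular and meningeal genes 6 fell and none rose, and of 11 blood cell genes 3 fell and none rose; their part in the Hox differences was not tested.

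In the cerebellum, which forms from the front of the hindbrain, 4 of 18 Hox genes were higher in R6/2 under each treatment, and they were the same 4, with Hoxa7, Hoxb6 and Hoxc6 among them (all genes tested: 19.5% higher and 40.1% called with vehicle, 20.4% and 41.9% with CHDI-00340246). Hoxa7 had 28 counts in the R6/2 vehicle group against 2, a ratio of 13.6 (lower bound 3.43; adjusted p = 5.2e-05), and 22 against 4 with CHDI-00340246 (0.0571 ± 0.0515 CPM against 0.0107 ± 0.0138 CPM, adjusted p = 0.0052). Hoxc6 had 29 against 2 with vehicle, a ratio of 14.1 (lower bound 3.56; adjusted p = 0.00078), and 29 against 5 with CHDI-00340246 (2.38 ± 0.69, adjusted p = 0.0049). Hoxb6 had no count in either WT group, against 12 in R6/2 with vehicle (at least 3.88-fold higher, adjusted p = 0.0096) and 29 with CHDI-00340246 (at least 9.83-fold higher, adjusted p = 6.1e-05).

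Hoxb5, the gene with the most counts in the R6/2 cortex, was lower in the R6/2 vehicle cerebellum, with 2 counts against 18 in WT, of which 8 were in 1 library (adjusted p = 0.037, lost in 7 of 15 alternative analyses). It was not called with CHDI-00340246, where it had 36 counts in R6/2, 22 of them in the first female, and 15 in WT. The low numbered genes that make up most of the cerebellar counts were not called: Hoxa2 had 73.4 counts in R6/2 and 68 in WT with vehicle, Hoxb2 50.3 and 42.7, and Hoxd3 48 and 43. Hoxd3 shares 62.3% of its exon bases with neighbouring gene models, Hoxd4 among them, so its counts may include those of its neighbours. The first R6/2 CHDI-00340246 female had the highest count of its group for 16 Hox genes, with 71 counts of Hoxd3 against 0 to 14 in the other 9. In counts not scaled to library size it was also above the other 9 in 13 of 14 vascular and meningeal genes and in 5 of 16 hindbrain and spinal neuron genes. Its library total was the largest of its group, and genes outside these lists, Gabra6 and Pax6 among them, were above the other 9 as well. Scaled to library totals, its Hox sum was 8.67 CPM against 0.631 to 3.02 CPM in the other 9. The part of library size in the excesses of the other genes was not tested. Without this female and the WT striatum male 4 Hox genes were called with CHDI-00340246 and 5 with vehicle, the same counts as with all libraries. Leaving out the replicates numbered 4 gave 10 called genes with CHDI-00340246 and 3 with vehicle. Choroid plexus genes, from tissue attached to the cerebellum, varied widely in both genotypes (33.1 to 3025 CPM in R6/2 vehicle against 24.3 to 2521 in WT vehicle) and none of 10 passed. The hindbrain and spinal neuron list summed to 41.6 to 54.5 CPM in R6/2 vehicle against 57.9 to 79.5 in WT vehicle. A single gene can make up most of this sum. In the first R6/2 CHDI-00340246 female Slc6a5 alone gave 57.8 CPM, where the highest sum of that group was 66.9 CPM. How far Slc6a5 sets the vehicle sums was not tested, so no difference in hindbrain or spinal tissue is read from them.

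**Figure D4:**
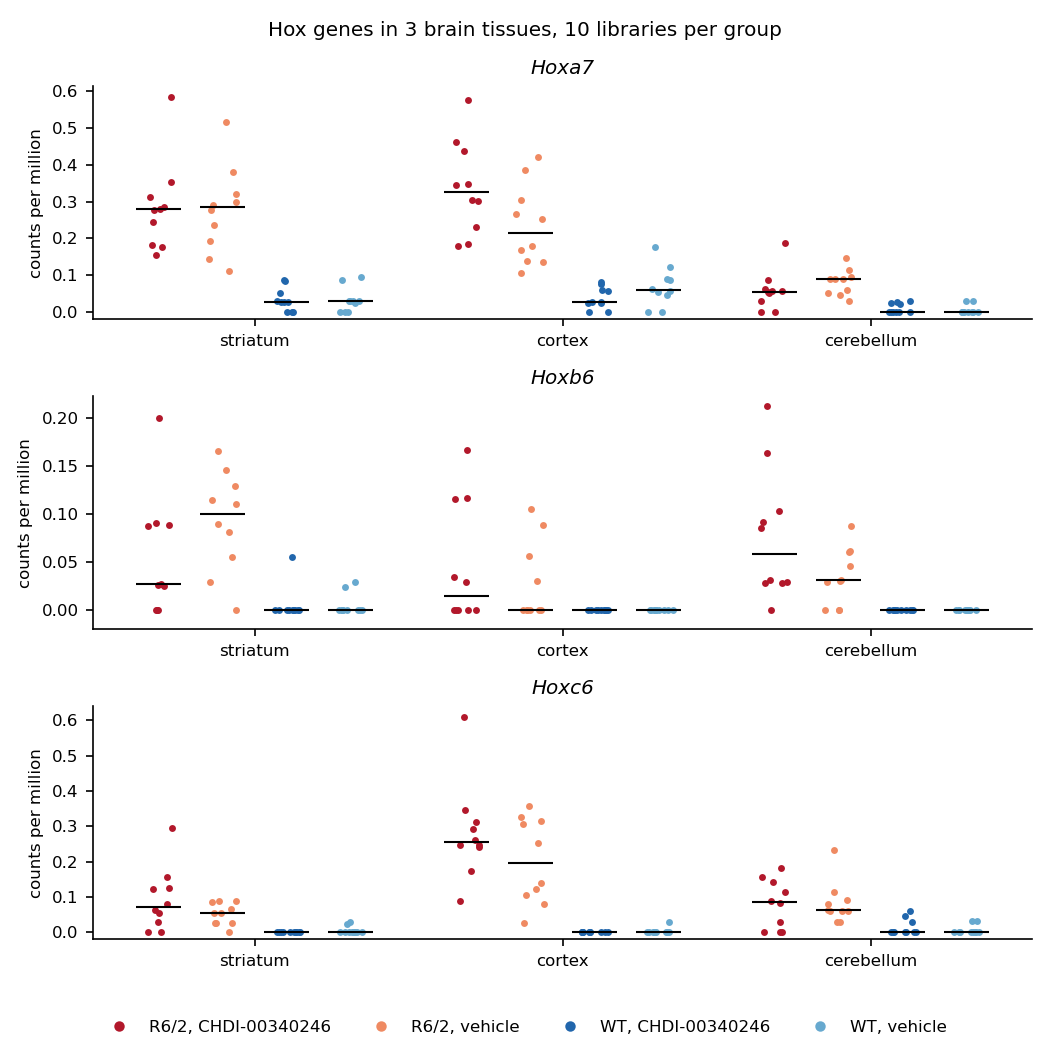
Level (CPM) of Hoxa7, Hoxb6 and Hoxc6 in striatum, cortex and cerebellum, by genotype and treatment with R6/2 left of WT; points are libraries. Hoxa7 in R6/2 vehicle averages 0.265 CPM in the striatum, 0.229 in the cortex and 0.0793 in the cerebellum, against 0.0342, 0.0714 and 0.0063 CPM in WT vehicle. These averages are TMM-scaled, while the points use library totals only.

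Across the 3 brain tissues, Hoxa7 and Hoxc6 were higher in R6/2 in all 3 with vehicle, and Hoxa7, Hoxb6 and Hoxc6 in all 3 with CHDI-00340246. Whether the genotype difference itself differed between tissues was tested in one model of the 60 vehicle libraries of the brain, in which 21 Hox genes were tested. Between cerebellum and cortex it differed for 6 of the 21 (22.8% of all 24219 genes). It was smaller in the cerebellum for Hoxb5 (2 counts in R6/2 and 18 in WT cerebellum, against 215 and 2 in the cortex, adjusted p = 3.7e-09), Hoxc4 (6 and 9 against 75 and 0, adjusted p = 0.00019), Hoxb13 (adjusted p = 0.034), Hoxa2 (0.039) and Hoxc5 (0.043), and larger in the cerebellum for Hoxa7 (28 and 2 counts against 81 and 25, difference 1.83 ± 0.68 on the log2 scale, adjusted p = 0.043). Between cerebellum and striatum it differed for 4 (27.9% of all genes), smaller in the cerebellum each time: Hoxb5 (adjusted p = 0.0013), Hoxc5 (0.0028), Hoxc4 (0.023) and Hoxb13 (0.047). Hoxb13 had only 0 counts in R6/2 and 3 in WT cerebellum, 10 and 2 in the cortex, and 2 and 0 in the striatum. Each of its calls between tissues was lost in 6 of 7 alternative analyses. Between cerebellum and cortex the calls of Hoxa7 and Hoxa2 were each lost in 5 of 8 and that of Hoxc5 in 4 of 7. The call of Hoxc4 was lost there in 1 of 7, and that of Hoxb5 was kept in all 8. Between striatum and cortex none of the 21 passed in edgeR (18% of all genes did), although Hoxb8 averaged 0.309 CPM in the R6/2 vehicle cortex and had no count in the R6/2 vehicle striatum. Without 1 replicate number at a time 1 to 3 genes passed between cerebellum and cortex and 2 or 3 between cerebellum and striatum. With specimen number as a block 3 passed between cerebellum and cortex, namely Hoxa2, Hoxb5 and Hoxc4, and 3 between cerebellum and striatum, namely Hoxb5, Hoxc4 and Hoxc5.

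In WT mice alone the same model gave 11 Hox genes called higher and 1 called lower in cerebellum than in cortex (31.4% of all genes were higher, 63.6% called). Hoxa2, which patterns the hindbrain, had 0 to 19 counts (median 5) in WT cerebellum and none in WT cortex, at least 24.5-fold higher (68 counts, adjusted p = 2.3e-07), and Hoxb2 had 42.7 counts against none, at least 15.4-fold higher (adjusted p = 5.7e-05). Hoxa3, Hoxa4, Hoxa5, Hoxb3, Hoxb5, Hoxc4, Hoxd3 and Hoxd13 were among the rest (adjusted p 0.00057 to 0.048), of which Hoxd3 and Hoxd13 lost their calls with specimen number as a block. Hoxa7 was lower in WT cerebellum, with 2 counts against 25 in WT cortex (−3.33 ± 0.65, adjusted p = 1.2e-05). WT striatum exceeded WT cortex in Hoxd1, with 3 to 10 counts (median 6) against 0 to 4 (median 1), a log2 fold change of 2.03 ± 0.41 (adjusted p = 2.5e-05), where 2 Hox genes were called and 24.9% of all genes were higher and 51% called.

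In the liver, where Hox genes had the most counts, the genotype differences were small. Hoxb4 had the highest level, 2.14 ± 0.184 CPM in R6/2 females and 2.33 ± 0.420 CPM in R6/2 males, against 2.19 ± 0.394 CPM in WT females and 1.66 ± 0.370 CPM in WT males (SD, n = 10 each, both treatments). No Hox gene of the 19 tested passed with vehicle in edgeR (17.4% of all genes did), and 4 had an unadjusted p under 0.05, with Hoxb5 the smallest (279 counts against 171, adjusted p = 0.088). With CHDI-00340246 Hoxb5 was higher, 15 to 44 counts (median 32) in R6/2 against 8 to 29 (median 16) in WT, a log2 fold change of 0.68 ± 0.20 (adjusted p = 0.011), where 10.4% of all 20628 genes were higher and 20% called. The R6/2 and WT livers overlapped, and without the replicates numbered 3 or 4 the adjusted p was 0.11 and 0.09. On FPKM 4 Hox genes passed under each treatment.

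The genotype difference in liver differed between the sexes for 2 of the 19 Hox genes (11.2% of all genes). For Hoxb2 the level was 0.570 ± 0.118 CPM in R6/2 females and 0.602 ± 0.132 in WT females, but 0.612 ± 0.292 in R6/2 males and 0.289 ± 0.125 in WT males (SD, n = 10 each). The female minus male difference of the genotype effect was −1.16 ± 0.33 on the log2 scale (adjusted p = 0.017), and for Hoxb4 it was −0.53 ± 0.18 (adjusted p = 0.048). In both genes the low group is the WT males. Leaving out 1 replicate number at a time gave 0 or 1 calls. No Hox gene passed this test in striatum, cortex or cerebellum, where 0 of all genes did and where 0, 1 and 2 Hox genes had an unadjusted p under 0.05.

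**Figure D5:**
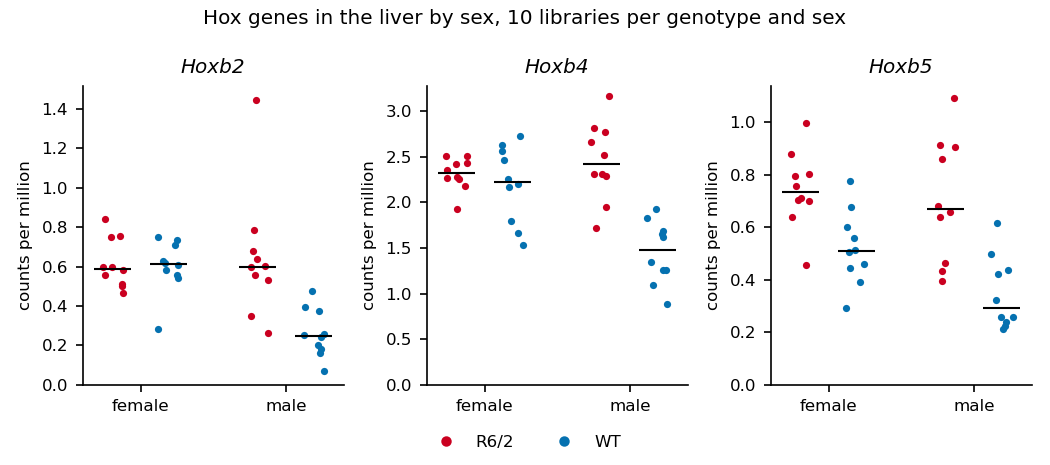
Level (CPM) of Hoxb2, Hoxb4 and Hoxb5 in each liver library by sex, R6/2 left of WT; points are libraries of both treatments and the line is the median. WT males are the low group, at means of 0.289 (Hoxb2), 1.66 (Hoxb4) and 0.393 CPM (Hoxb5). The means are TMM-scaled, while points and lines use library totals only.

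CHDI-00340246 itself moved no Hox gene past the threshold. Against vehicle, 0 Hox genes were called in R6/2 or WT in any tissue by edgeR, DESeq2 or limma on FPKM; over all genes the edgeR test called 21 in the R6/2 cortex (0.0904%; 0.0215% higher, 0.0689% lower), 8 in the R6/2 cerebellum (0.0349%; 0.00873% higher, 0.0262% lower), 4 in the R6/2 liver (0.0194%) and 0 elsewhere. At an unadjusted p under 0.05 there were 1, 4, 4 and 0 Hox genes in R6/2 striatum, cortex, cerebellum and liver, and 4, 1, 0 and 0 in WT. In the R6/2 cortex the smallest p was that of Hoxb2, with 20 counts in the CHDI-00340246 group and 5.57 in the vehicle group (1.81 ± 0.71, adjusted p = 0.58). Hoxb5, with 299 against 215 counts there, was not among the 4. In the R6/2 cerebellum it was Hoxb5, with 36 counts against 2, of which 22 were in the first female (adjusted p = 0.63). The difference of the CHDI-00340246 effect between genotypes passed for no Hox gene and for no other gene in any tissue, and 3 Hox genes in the cortex and 2 in the cerebellum had an unadjusted p under 0.05.

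The proteins that act with Hox genes and on their clusters were compared the same way. Of 9 genes of Hox partner proteins, 2 rose and 4 fell in the R6/2 vehicle cortex (list median −0.10 on the log2 scale, all genes 0.0047), where 21.7% of all genes tested were higher and 20.9% lower. Meis1 rose, at 6.07 against 3.18 CPM (0.92 ± 0.21, adjusted p = 0.00039), and Pknox2 fell, at 51.5 against 66.1 CPM (−0.36 ± 0.04, adjusted p = 1.6e-09). Meis1 also rose in the striatum (0.46 ± 0.05) and cerebellum (0.52 ± 0.04) with vehicle. Of 30 Polycomb genes, whose products keep the clusters silent, 18 rose and 5 fell in the R6/2 vehicle cortex (list median 0.19), 14 and 4 in the striatum and 14 and 5 in the cerebellum. Of all genes tested 23.2% were higher and 20.2% lower in the striatum, and 19.5% and 20.6% in the cerebellum. Bmi1 rose in the cortex (0.39 ± 0.04, adjusted p = 1.5e-11), as did Cbx8 (0.58 ± 0.07, adjusted p = 2.6e-09), while Cbx6 fell (−0.36 ± 0.03, adjusted p = 4.4e-13). Of 13 genes of the opposing Trithorax group and of H3K27 demethylases 6 rose and none fell in the cortex, led by Ash2l (0.45 ± 0.03, adjusted p = 4.6e-15), while 4 rose and 1 fell in the striatum and likewise in the cerebellum.

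Retinoic acid switches on low numbered Hox genes in the embryo. Of 17 genes of this pathway and of the Cdx family 14 were tested in the vehicle striatum, of which 10 fell and none rose in R6/2 (list median −0.56 on the log2 scale, all genes 0.0151; 20.2% of all genes tested were lower and 23.2% higher), among them the receptors Rarb (−0.80 ± 0.06, adjusted p = 1.3e-13) and Rxrg (−1.03 ± 0.09, adjusted p = 2.8e-12). In the cortex 1 rose and 3 fell, in the cerebellum 3 rose and 3 fell, and in the liver, where 8.69% of all genes were higher and 8.72% lower, 2 rose and 2 fell. Of the genes that flank the clusters 7 of 17 tested rose and 2 fell in the vehicle cortex, where 21.7% of all genes were higher and 20.9% lower. Skap2, beside HoxA, rose there (0.85 ± 0.06, adjusted p = 3.3e-15 with vehicle), and Skap1, beside HoxB, fell (−0.89 ± 0.11, adjusted p = 3.5e-09).

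Among the non-coding RNAs of the clusters, Hotairm1, of the HoxA cluster, was higher in the R6/2 cerebellum with 85 counts against 22 with vehicle (1.78 ± 0.41, adjusted p = 0.00046) and 85.8 against 25 with CHDI-00340246 (2.02 ± 0.43, adjusted p = 0.00017). In the vehicle cortex it had 13 counts against 2, a ratio of 6.75 (1.53 to 61.6; adjusted p = 0.016). Hoxb3os had 12.5 counts in the R6/2 vehicle cortex and 1 in WT, a ratio of 12.5 (1.84 to 533; adjusted p = 0.041). Hotair, Hottip and the cluster microRNAs had 0 counts in all groups. Whether reads were counted by strand is not given in the sources used here, so reads of an antisense RNA and of the Hox gene it overlaps cannot be told apart.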

How the data were processed

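Total RNA was sequenced from 160 tissue samples. Estimated counts and FPKM values of each gene were deposited by the authors; the counts were rounded to whole numbers here. The submitters' processing notes name CASAVA 1.8.2, while aligner, counter, build and strand setting are not stated there. Symbols and positions came from GENCODE M21 (GRCm38), which matched 37607 of 39179 genes. Of the deposited FPKM columns 13 of 160 matched best the count column of the same name but all 160 matched their group, so FPKM is given by group only.

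Counts were tested per tissue with edgeR 4.0.16 (R 4.3.3; TMM, robust quasi-likelihood, cell means of genotype, treatment and sex), over genes with 10 or more counts in the tissue's 40 libraries, with Benjamini-Hochberg adjustment over all of them. One fit of 60 vehicle brain libraries compared regions. Group levels of single genes in CPM were TMM-scaled. Sums over genes, members set beside them in 1 library, ratios of sums and plotted points were scaled to library totals only. DESeq2 1.42.0 and limma 3.58.1 on FPKM were among the alternatives. Fits were checked on simulated data. Intervals are exact 95% and a count of 0 allows up to 3 counts; both cover counting error only.

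All 38 Hox genes are accounted for by group sums. Called members have full values, up to 8 per comparison by smallest p, as have up to 4 called genes per list; some genes counted in these sums and calls are not reported by name here. The members and gene lists were chosen with earlier results of these data known.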

Additional observations from a re-analysis of the deposited data

Results flagged for a closer look

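A single sample far from the rest of its group of 10 was looked for in the Hox sums of the 16 groups, where chance flags about 1 in 20. It was found in 3: the first female of the R6/2 CHDI-00340246 cerebellum at 8.67 CPM, the second male of the WT CHDI-00340246 striatum at 4.76 and the fourth male of the R6/2 CHDI-00340246 liver at 8.85.

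Differences between groups in the genotype effect, each by a test of the difference itself on the log2 scale, were found between the sexes in liver for Hoxb4 (−0.53) and Hoxb2 (−1.16). Between cerebellum and cortex they were found for Hoxb13 (−3.52), Hoxb5 (−8.91), Hoxc5 (−2.87), Hoxc4 (−6.51), Hoxa2 (−3.12) and Hoxa7 (1.83). Between cerebellum and striatum they were found for Hoxb13 (−3.08), Hoxb5 (−4.73), Hoxc5 (−4.21) and Hoxc4 (−3.56). Values that involve a group at or near 0 counts depend on the prior count of the fit.

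Of 79 groups of called genes 23 held a single far sample, many of them 1 count in a group otherwise at 0. In the R6/2 vehicle cortex the fourth female was highest for Hoxb5 (1.799 CPM), Hoxb8 (1.12 CPM) and Hoxa5 (0.170 CPM), the fifth female for Hoxc4 (0.551 CPM) and the second male for Hoxc5 (0.115 CPM). In the R6/2 CHDI-00340246 cortex these were the third female for Hoxb9 (0.282 CPM) and the fifth female for Hoxc6 (0.588 CPM). In the WT CHDI-00340246 cortex they were the second female for Hoxb8 (0.0282 CPM) and the third male for Hoxc5 (0.0311 CPM). In the WT vehicle cortex they were the fourth female for Hoxa3 (0.0305 CPM), the second male for Hoxa4 (0.0286 CPM) and the fourth male for Hoxc5 and Hoxc6 (0.0305 CPM each). In the R6/2 CHDI-00340246 striatum they were the first female for Hoxa7 (0.551 CPM), the fifth for Hoxb6 (0.191 CPM) and the second for Hoxc6 (0.279 CPM). In the WT striatum they were the second male for Hoxb3 (0.466 CPM) and the fourth female for Hoxb6 (0.0572 CPM) with CHDI-00340246, and the fifth male for Hoxa2 (0.0269 CPM) with vehicle. In the cerebellum they were the first R6/2 CHDI-00340246 female for Hoxa7 (0.183 CPM), the fifth R6/2 vehicle female for Hoxc6 (0.229 CPM), and in WT vehicle the fifth female for Hoxb5 (0.213 CPM) and the first for Hoxd13 (0.124 CPM).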

How the results depend on the processing

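Counts of called Hox genes were recomputed under 396 alternatives, of which 350 stayed within 1.5 times; of 857 alternatives for single genes 0 changed sign, 21 lost their call without the replicates numbered 5, 15 to 19 without another number, 17 with DESeq2 and 13 or fewer under each other setting. Low counts limit most calls. A stricter expression filter left 2 Hox genes tested in striatum, 5 in cortex, 3 in cerebellum and 3 in the brain fit; it gave 2 (CHDI-00340246) and 1 (vehicle) calls in striatum, 5 and 5 in cortex, 0 and 0 in cerebellum, 3 between cerebellum and cortex, 1 between cerebellum and striatum, 3 for WT cerebellum and 0 for WT striatum against WT cortex. DESeq2 called 3 in the CHDI-00340246 striatum, 6 and 6 in cortex and 3 in the vehicle cerebellum. FPKM with pseudocount 1 gave 3 in striatum, 6 in cortex and 3 in cerebellum with vehicle, and, with pseudocount 1 or 0.1, 4 and 4 in liver. Library number as a covariate gave 3 in the CHDI-00340246 striatum and 1 in the vehicle liver, no filter gave 1 for sex in liver, and specimen number as a block 3 between cerebellum and cortex. The cause was not tested.

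Leaving out 1 replicate number at a time gave 3 to 6 (CHDI-00340246) and 4 to 5 (vehicle) calls in striatum, 8 to 13 and 6 to 8 in cortex, 4 to 10 and 3 to 4 in cerebellum, 0 to 2 and 0 to 0 in liver, and 0 to 1 for sex in liver. It gave 1 to 3 between cerebellum and cortex, 2 to 3 between cerebellum and striatum, 0 to 1 between striatum and cortex, 9 to 12 for WT cerebellum and 2 to 3 for WT striatum against WT cortex. Leaving out the 2 libraries with high Hox sums was chosen after seeing the data.

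Same-numbered libraries did not deviate together (median correlations −0.0170 to 0.0256 over 60 pairs per tissue), so the numbers do not pair samples. With replicate number as a block the calls were 6 and 6 in striatum, 12 and 12 in cortex, 4 and 5 in cerebellum and 1 and 0 in liver (CHDI-00340246, then vehicle), and 0 for CHDI-00340246 against vehicle.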
